A study of Homo sapiens with 8 samples.

Results

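The classical cadherins of type II that were followed here are CDH18 and 9 relatives, CDH5, CDH6, CDH7, CDH8, CDH9, CDH10, CDH11, CDH12, and CDH24. These 10 of the 19483 genes named on the array were taken by their RefSeq transcripts, each has 1 probe with 1 spot on an array, and CDH18 and the list were picked because of signals on these same arrays, so that the levels are a description without a test. Cy-3 labeled cRNA of 8 HEK293T lines, a human embryonic kidney line, was hybridized to 1 array each. All lines were stable transfectants grown from a single colony under blasticidin S, and each of the 4 constructs was represented by 2 such clones. The spread within a construct holds differences between clones and those of measurement, which 1 array per clone cannot tell apart. Empty vector (#1 and #2) carries no insert. TET1-CDwt (#2 and #5) is the catalytic domain of TET1, the enzyme that oxidizes 5-methylcytosine, MBD-TET1-CDwt (#3 and #10) is that domain joined to the methyl-CpG-binding domain of MBD2, and MBD-TET1-CDmut (#9 and #10) is the fusion with a substitution that inactivates the enzyme. Empty vector and TET1-CDwt share slide 1 and both fusions share slide 2, so that construct and slide cannot be told apart when a fusion is set against empty vector.

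Cadherins are calcium-dependent adhesion proteins that bind a cadherin on the neighbouring cell through their outermost repeat and are tied to the actin cytoskeleton by catenins. Type II cadherins insert a pair of conserved tryptophans into the partner, where type I cadherins such as E-cadherin insert a single one. Many type II members mark groups of neurons in the developing brain, while others are known from mesenchyme, kidney, or vessels.

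Each value below is the log2 of the background-subtracted intensity after subtraction of its array's 75th percentile (control spots left out), and a probe was counted as detected where Feature Extraction called it well above background. The 75th percentile lay between an intensity of 328 and 527, and between 63.2% and 68.2% of 34127 probes were detected on an array. By slide, the share was 65.8% to 68.2% on slide 1 and 63.2% to 64.6% on slide 2. The dimmest detected signal lay between -6.01 and -5.82 on slide 1 and between -5.56 and -5.51 on slide 2. A dim signal was thus detected more readily on slide 1. All 7 HEK293T markers examined were detected on all arrays. The TET1 probes measured between -1.55 and -0.70 and between 2.61 and 2.94 over the arrays, the dimmer one higher on both MBD-TET1-CDmut clones than on empty vector, and the MBD2 probes between 1.25 and 1.65 and between -5.21 and -2.57. As their place relative to the cloned domains is unknown, they check nothing.

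Of the 10 members, 2 were detected on all 8 arrays (CDH5 and CDH24), 4 on some (CDH7, CDH10, CDH11, and CDH18), and 4 on none (CDH6, CDH8, CDH9, and CDH12). Of 80 values, 34 were detected. The dimmest detected value was -5.70, of CDH10 on TET1-CDwt #5, and the brightest value that was not detected was -5.13, of CDH7 on MBD-TET1-CDwt #3.

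**Figure D1:**
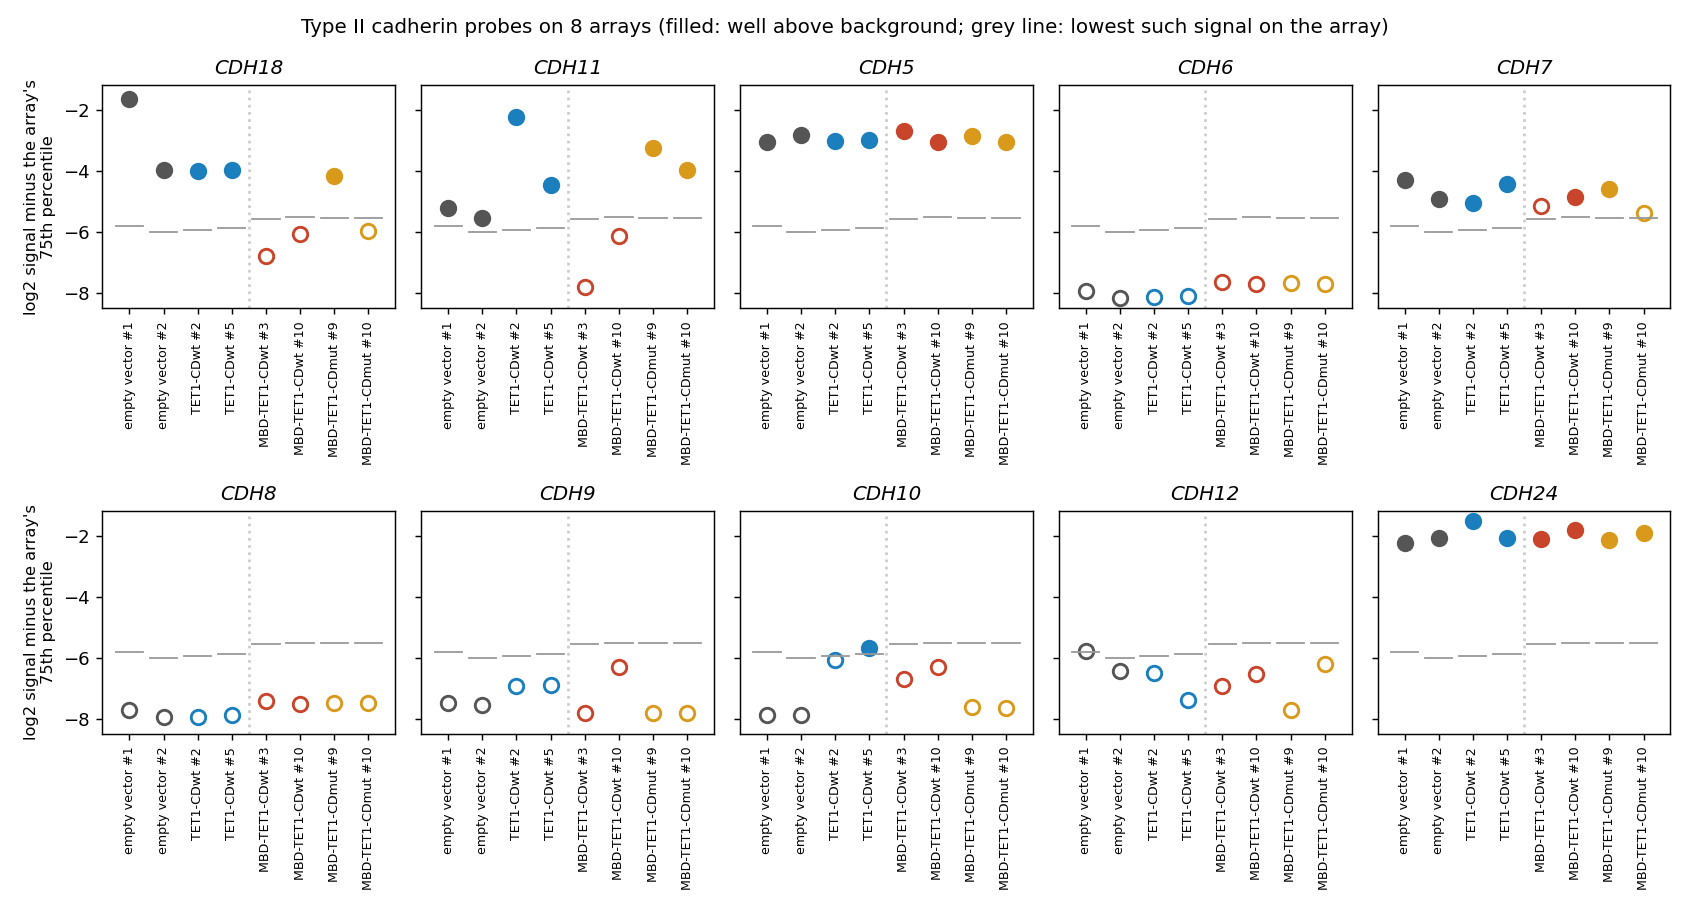
Log2 signal minus the array's 75th percentile (vertical axis) of the 10 member probes on the 8 arrays (horizontal axis), filled where well above background and open where not, with a grey line at the dimmest detected signal of each array. CDH18 and CDH11 are open on both MBD-TET1-CDwt arrays, and CDH5 and CDH24 stay within 0.38 and 0.73.

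CDH18 (NM_004934), a cadherin of the central nervous system, had its highest signal on 1 empty vector clone and its lowest on the MBD-TET1-CDwt clones. It measured -1.65 on empty vector #1 and -3.95 on #2, and -4.01 and -3.96 on TET1-CDwt #2 and #5, all detected. On MBD-TET1-CDwt #3 and #10 it measured -6.78 and -6.06, both not detected. On MBD-TET1-CDmut #9 it was detected at -4.16, and on #10 it was not, at -5.96. Empty vector #1 thus stood apart from the other 7 arrays, and empty vector #2, both TET1-CDwt clones, and MBD-TET1-CDmut #9 lay close together. In intensity units, empty vector #1 gave 113, the 4 other detected arrays gave 18.7 to 32.8, and the 3 dim arrays gave 3.19 to 6.24. The scanner software's own error was 10.1% of the signal on empty vector #1 and 62.0% on MBD-TET1-CDwt #3.

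CDH18 averaged -2.80 ± 1.63 (SD, n = 2) in empty vector and -3.98 ± 0.03 in TET1-CDwt. It averaged -6.42 ± 0.51 in the active fusion and -5.06 ± 1.28 in the mutated one, with a pooled SD of 1.07. From the highest to the lowest, empty vector and TET1-CDwt were 1.18 apart, TET1-CDwt and MBD-TET1-CDmut 1.07, and MBD-TET1-CDmut and MBD-TET1-CDwt 1.36, so that no neighbours in this order were further apart than 1.36, against a standard error of 1.07. Both MBD-TET1-CDwt clones were below all 6 other arrays, the nearest being MBD-TET1-CDmut #10. That array (-5.96) and MBD-TET1-CDwt #10 (-6.06) were both not detected, so that their order is uncertain. A lower level in every cell and fewer expressing cells cannot be told apart in such bulk signals.

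Against empty vector, CDH18 was 6.67-fold lower in MBD-TET1-CDwt with the dim arrays taken at the dimmest detected signal. The difference as measured was -3.62 on the log2 scale (standard error 1.07). The fold is an approximate bound and not a strict one. A probe can stay undetected above that signal, as CDH7 did at -5.13 on MBD-TET1-CDwt #3. Without empty vector #1 the bound was 3.005-fold, and without #2 it was 14.8-fold. When normexp was used for background, leaving out spots below their local background and adding an offset of 50 units, the log2 difference was -0.71 in place of -2.74, beside -0.65 for TET1-CDwt and -0.59 for MBD-TET1-CDmut. Normexp over all spots gave -1.92 (3.78-fold). The offset is above every CDH18 intensity except that of empty vector #1, and it draws dim signals together by construction. At a threshold of 5-fold, CDH18 was 1 of 6 genes counted as lower (0.0216% of 27739, a number that includes transcripts without a RefSeq symbol, each under its own identifier on the array).

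**Figure D2:**
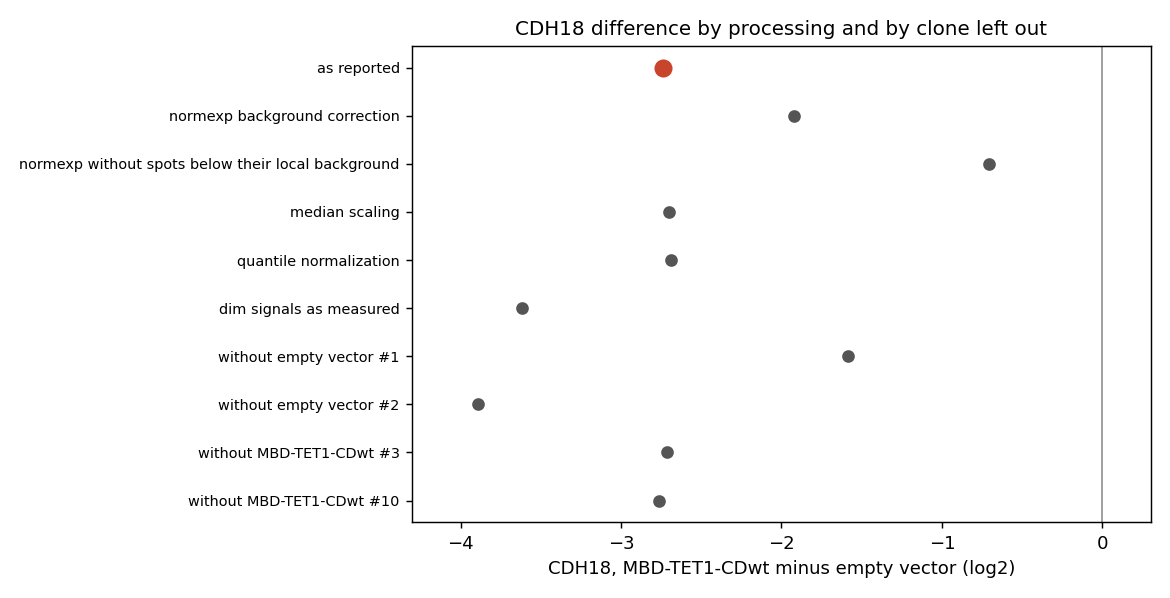
Log2 difference of CDH18, MBD-TET1-CDwt minus empty vector with dim arrays at the dimmest detected signal (horizontal axis), as reported (red) and under each other setting or with a clone left out (grey). All values are below 0, from -3.89 without empty vector #2 to -0.71 with the second normexp setting.

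TET1-CDwt was 2.27-fold lower than empty vector in CDH18 (-1.18, standard error 1.07), within slide 1. This difference was -0.033 without empty vector #1. MBD-TET1-CDmut was 4.12-fold lower than empty vector with its dim array at the dimmest detected signal (-2.04), and -0.89 without empty vector #1 (-1.11 as measured). Within slide 2, MBD-TET1-CDwt was at least 1.39-fold lower than MBD-TET1-CDmut (-0.48, or -1.36 as measured). Without MBD-TET1-CDmut #9 no fold can be given, since none of the arrays that remain is detected, and the difference as measured was -0.46.

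The gene lies on chromosome 5, and RefSeq (GRCh38.p14) gives windows for 3 of its transcript starts. As methyl-CpG is what the fusion binds, the 250 bases before each start are shown with every CG in capitals. The letters CG read the same on both strands and cannot overlap one another.
CDH18 window chr5:20575714-20575963, minus strand: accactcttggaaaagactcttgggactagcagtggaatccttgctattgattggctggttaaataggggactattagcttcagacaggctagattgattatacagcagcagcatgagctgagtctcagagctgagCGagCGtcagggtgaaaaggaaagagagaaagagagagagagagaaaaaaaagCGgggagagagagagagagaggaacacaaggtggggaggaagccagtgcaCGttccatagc
CDH18 window chr5:19988201-19988450, minus strand: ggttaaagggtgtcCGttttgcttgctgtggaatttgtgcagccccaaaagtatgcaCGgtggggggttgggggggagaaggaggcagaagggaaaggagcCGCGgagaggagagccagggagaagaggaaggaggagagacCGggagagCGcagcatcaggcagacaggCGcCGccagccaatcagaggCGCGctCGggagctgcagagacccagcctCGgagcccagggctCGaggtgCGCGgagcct
CDH18 window chr5:19886273-19886522, minus strand: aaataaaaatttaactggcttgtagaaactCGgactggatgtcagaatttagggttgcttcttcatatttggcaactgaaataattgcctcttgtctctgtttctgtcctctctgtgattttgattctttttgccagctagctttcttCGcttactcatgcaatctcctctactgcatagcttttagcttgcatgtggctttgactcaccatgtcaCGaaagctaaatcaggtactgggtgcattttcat
These windows hold 4, 15, and 3 CGs, with a GC content of 48.4%, 64.4%, and 39.6%. Over 35116 windows of the same length, the median was 11 CGs (quartiles 3 and 23), and 93.9% held at least 1, so that only the middle window of CDH18 is above the median. Methylation of these bases was not analysed here, and the array does not tell which start is used.

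Of the other members, CDH7, CDH8, CDH9, CDH10, and CDH12 have windows in the same source, which brings the total to 12 windows of 6 members, whereas CDH5, CDH6, CDH11, and CDH24 were not matched. CDH7 has both a window of 33 CGs, which is more than in 91.9% of all windows, and one of 6. The windows of CDH8 hold 19 and 17 CGs, those of CDH12 hold 10, 9, and 1, and the windows of CDH10 and CDH9 hold 10 and 7.

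CDH11 (NM_001797), the cadherin of osteoblasts and mesenchyme, was the other member detected on all 4 arrays of slide 1 but on neither MBD-TET1-CDwt array, and it was singled out after its values were seen. It measured -5.20 and -5.54 on empty vector #1 and #2, close above the dimmest detected signals of slide 1. On slide 2 the dimmest detected signals lay between -5.56 and -5.51, so that the value of empty vector #2 was at the limit there. CDH11 measured -2.23 on TET1-CDwt #2 and -4.46 on #5, and -3.24 and -3.97 on MBD-TET1-CDmut #9 and #10, all detected. On MBD-TET1-CDwt #3 and #10 it measured -7.82 and -6.15, both not detected. The 4 constructs did not overlap in any of the comparisons made, with MBD-TET1-CDwt lowest, empty vector next, and TET1-CDwt and MBD-TET1-CDmut above and overlapping each other.

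CDH11 averaged -5.37 ± 0.24 (SD, n = 2) in empty vector and -3.34 ± 1.57 in TET1-CDwt. It averaged -6.98 ± 1.18 in the active fusion and -3.60 ± 0.52 in the mutated one. TET1-CDwt was 4.08-fold higher than empty vector (2.03, standard error 1.02), and the log2 difference was 0.92 without TET1-CDwt #2. MBD-TET1-CDmut was 3.41-fold higher than empty vector, and between 1.40 and 2.14 on the log2 scale with any 1 clone left out. Within slide 2, the approximate bound for MBD-TET1-CDwt was 3.82-fold lower than MBD-TET1-CDmut (-3.38 as measured, -4.21 to -2.55 with any 1 clone left out). Against empty vector the approximate bound for MBD-TET1-CDwt was 1.12-fold lower, because empty vector itself was near the detection limit. It is so small that no difference is read from it. With the second normexp setting the differences of CDH11 from empty vector were 0.59 (TET1-CDwt), 0.55 (MBD-TET1-CDmut), and 0.052 (MBD-TET1-CDwt), and that between the fusions was -0.50.

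CDH5 (NM_001795), the VE-cadherin of endothelial junctions, varied least among the detected members. It measured -3.03 and -2.80 on empty vector #1 and #2, -3.003 and -2.985 on TET1-CDwt #2 and #5, -2.68 and -3.04 on MBD-TET1-CDwt #3 and #10, and -2.85 and -3.06 on MBD-TET1-CDmut #9 and #10. All groups overlapped, and the largest difference between 2 of the means compared was 0.09 (standard error 0.17). Of 6 other endothelial markers, 5 were detected on no array, among them PECAM1, TEK, and KDR, and VWF on 1.

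CDH24 (NM_022478), which binds catenins and is found in many tissues, was likewise detected throughout. It measured -2.23 and -2.06 on empty vector, -1.51 and -2.08 on TET1-CDwt, -2.09 and -1.80 on MBD-TET1-CDwt, and -2.15 and -1.91 on MBD-TET1-CDmut. All groups overlapped, with TET1-CDwt #2 the highest array, and the differences of means ranged from 0.09 between the fusions to 0.35 for TET1-CDwt (standard error 0.25).

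CDH7 (NM_004361), a cadherin of neural crest and brain, was detected on 6 arrays. It measured -4.28 and -4.92 on empty vector, and -5.06 and -4.41 on TET1-CDwt. On slide 2 it was detected at -4.86 on MBD-TET1-CDwt #10 and -4.61 on MBD-TET1-CDmut #9, and was not detected at -5.13 on MBD-TET1-CDwt #3 and -5.36 on MBD-TET1-CDmut #10. All groups overlapped, and both fusions had means 0.40 and 0.38 below empty vector (standard error 0.43).

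CDH10 (NM_006727), a cadherin of brain and its vessels, was detected only on TET1-CDwt #5, at -5.70. That value is below the dimmest detected signal of every array of slide 2. TET1-CDwt #2 measured -6.07, MBD-TET1-CDwt #3 and #10 measured -6.71 and -6.30, and the empty vector and MBD-TET1-CDmut clones lay between -7.90 and -7.62. The clones of TET1-CDwt and MBD-TET1-CDwt were thus above those of empty vector and MBD-TET1-CDmut, but 7 of the 8 values were not detected. For TET1-CDwt the approximate bound was 1.02-fold above empty vector. The undetected value of TET1-CDwt #2 entered it as measured, so that no difference is read from it. No fold can be given for the fusions. CDH10 did not pass the filter on dim probes (both arrays of at least 1 construct detected), which 5 members passed, CDH5, CDH7, CDH11, CDH18, and CDH24.

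The other 4 members gave no detected signal. CDH6, known from kidney development, lay between -8.18 and -7.65, and CDH8, a cadherin of the brain, between -7.96 and -7.41. Both were higher on all 4 arrays of slide 2 than on any of slide 1, by 0.38 and 0.36 when MBD-TET1-CDwt is set against empty vector. The 9137 probes detected on no array moved in the same way, with medians of 0.37 (MBD-TET1-CDwt) and 0.35 (MBD-TET1-CDmut) relative to empty vector and 0.03 between the fusions. CDH9 and CDH12, both cadherins of the brain, ranged from -7.82 to -6.32 and from -7.71 to -5.80. The clones of a single construct were as far apart as -7.81 and -6.32 for CDH9 in MBD-TET1-CDwt, and -7.71 and -6.21 for CDH12 in MBD-TET1-CDmut.

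**Figure D3:**
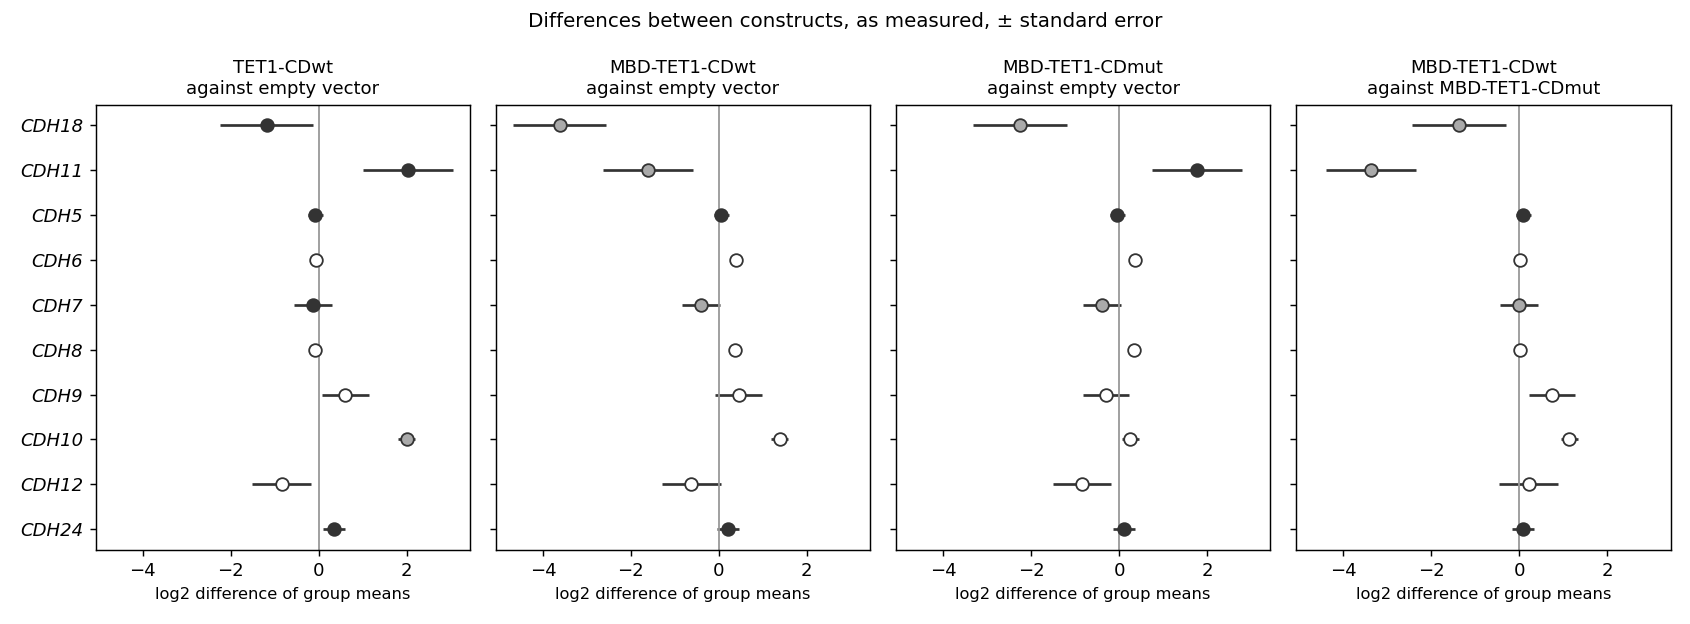
Log2 difference of group means as measured (horizontal axis) for each member in the 4 comparisons, with the standard error from the pooled SD as bars, black where both groups have 2 detected arrays, grey where some arrays are detected, and open where none is. The values furthest from 0 are the -3.62 of CDH18 for MBD-TET1-CDwt against empty vector and the -3.38 of CDH11 between the fusions. The open points of CDH6 and CDH8 are above 0 against empty vector for both fusions, which share slide 2.

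Members at least 2-fold apart were counted where both arrays of the brighter group were detected, with the share of the 27739 genes and unnamed transcripts beside them. In TET1-CDwt against empty vector, CDH11 was higher (background 0.278%) and CDH18 lower (0.451%). In MBD-TET1-CDmut against empty vector the same members were counted, CDH11 as higher (0.285%) and CDH18 as lower (0.324%). MBD-TET1-CDwt had CDH18 counted as lower (0.779%) and no member was higher (0.952%). Within slide 2, the active fusion had a lower CDH11 than the mutated one (0.84%) and no member was higher (1.01%). At 5-fold, only the lower CDH18 of MBD-TET1-CDwt was counted, beside backgrounds of 0.234% for higher genes there, 0.0108% and 0.00361% for higher and lower genes in TET1-CDwt, 0.0288% and 0.00721% for MBD-TET1-CDmut, and 0.177% and 0.0505% between the fusions. These comparisons share the empty vector clones, and the members were chosen from these values, so that nothing is read from the shares. With the second normexp setting, no member was counted in any comparison.

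The median difference from empty vector over the 10 members was -0.07 in TET1-CDwt, 0.13 in the active fusion, and 0.04 in the mutated one, and it was 0.05 between the fusions. The medians over all probes were -0.06, 0.05, 0.03, and 0.02. Of 5 members detected on all 4 arrays of slide 1, CDH11 and CDH18 were detected on neither MBD-TET1-CDwt array, as were 1.17% of 17368 genes and unnamed transcripts. Of 3 members detected on all 6 arrays outside MBD-TET1-CDwt, this held for CDH11, and for 0.444% of 16882 genes and unnamed transcripts. The members were chosen from these same signals, and the genes behind the shares were not matched for brightness. Nothing is therefore read from these shares either.

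The members are clustered in the genome. On chromosome 5 they stand in the order CDH18, CDH12, CDH10, CDH9, and CDH6, with at most 1 protein-coding gene between neighbours, and on chromosome 16 CDH8, CDH11, and CDH5 follow each other with 0 between them. CDH24 lies on chromosome 14 and CDH7 on chromosome 18. CDH12, next to CDH18, was detected on no array, and CDH5 ranged over 0.38 where CDH11 ranged over 5.58. CDH10 and CDH9 were both higher on TET1-CDwt #2 and #5 and MBD-TET1-CDwt #10 than on the empty vector and MBD-TET1-CDmut arrays, but of these values only that of CDH10 on TET1-CDwt #5 was detected.

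The genes nearest to CDH18 in profile were sought among probes detected on both arrays of at least 1 construct, by the root mean square difference of profiles centred on their own means over the 8 arrays. TTC9B was nearest at 0.79, followed by COL6A5, a collagen chain, at 0.87, RAPGEF1, a guanine nucleotide exchange factor, at 0.94, and SLC35F1 and FOLH1, the folate hydrolase known as prostate-specific membrane antigen, both at 0.96. FUT1, a fucosyltransferase of the H blood group antigen, was at 0.98. The median of all probes tested was 1.55 and a flat profile gave 1.53. Of the 6 genes, 5 were detected on neither MBD-TET1-CDwt array, and FUT1 was detected on all arrays, at -0.68 on empty vector #1 and -4.58 on MBD-TET1-CDwt #3. As the genes were ranked by likeness to CDH18, their low signals on these arrays follow from the choice and are no separate result. Among the other detected members CDH7 was at 1.29, CDH5 at 1.58, CDH24 at 1.61, and CDH11 at 1.73.

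**Figure D4:**
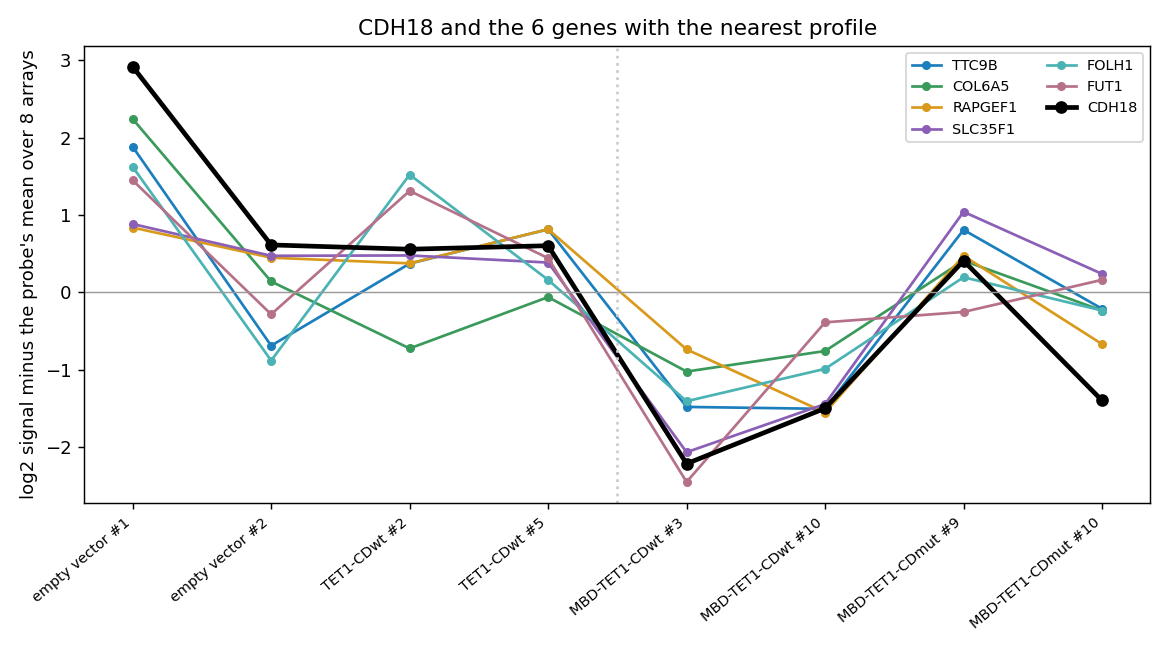
Log2 signal minus the probe's mean over 8 arrays (vertical axis) on each array (horizontal axis) for CDH18 (black) and the 6 genes with the smallest root mean square difference to it, 0.79 to 0.98. All 7 lines are lowest on slide 2, on an MBD-TET1-CDwt array, which follows from picking genes by their likeness to CDH18.

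Other adhesion genes of 9 lists, 81 genes in all, were tested with limma over 22530 probes. Of these, 80 have a probe, 17 were detected on no array, and 55 genes entered the test with 82 probes. By limma, 0 passed an adjusted p of 0.05 in each of the 4 comparisons. Over all probes, 0.102% passed as higher and 0.0133% as lower in MBD-TET1-CDwt relative to empty vector, 0.0888% and 0.0133% relative to MBD-TET1-CDmut, and 0 in the other two. At an unadjusted p under 0.05, 3 genes were higher and 7 lower in the active fusion relative to empty vector (2.84% and 3.76% of all probes), and 3 were higher and 9 lower relative to the mutated fusion (3.28% and 3.56%). In TET1-CDwt 2 were higher and 0 lower (0.652% and 1.85%), and in MBD-TET1-CDmut 1 was higher and 1 lower than in empty vector (0.861% and 1.82%). These counts are of the 55 genes, each counted if any of its probes passed, whereas the shares are of probes. The units differ, so that counts and shares are not compared. For the active fusion, the median over the 82 probes was -0.15 relative to empty vector and -0.14 relative to the mutated fusion, beside -0.02 and 0.01 over all probes tested.

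Among the remaining type II cadherins, CDH19 and CDH20 were detected on no array, and CDH22, a cadherin of the brain, was detected on all, between 2.98 and 3.50. Of the type I cadherins, CDH15, of muscle, varied between clones of MBD-TET1-CDwt, at -3.43 on #3 and 0.57 on #10, and CDH3, P-cadherin, at -2.74 and -0.41. The lowest adjusted p (limma) was that of CDHR1, a photoreceptor cadherin, at -1.52 ± 0.27 (SE) between the fusions (adjusted p = 0.245) and -1.50 against empty vector (adjusted p = 0.287). Its values were -5.13 and -5.40 on the MBD-TET1-CDwt clones, without overlap with any other construct, and -3.61 and -3.89 on the MBD-TET1-CDmut clones. CELSR3, a cadherin of planar polarity and axon guidance, was -1.12 ± 0.26 between the fusions (adjusted p = 0.44).

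Linkers and junction partners are given by their differences between the fusions. For the 2 genes first named from each list, the probe with the largest difference among those detected on all arrays is given first. JUP, plakoglobin, was -0.55 and ARVCF, a catenin of the p120 family, -0.50. Both differences came from MBD-TET1-CDwt #3, at 0.90 for JUP and -5.22 for ARVCF. MBD-TET1-CDwt #10 measured 2.28 and -4.22. The mutated clones #9 and #10 measured 2.26 and 2.02 for JUP and -3.94 and -4.49 for ARVCF. The other ARVCF probe was -0.26. Of desmosome genes, DSC3 was -1.01 (its other probe -0.43) and DSC2 -0.73. Of nectins, NECTIN2 was -0.80 (its brighter probe -0.33) and PVR -0.45 (its other probes -0.31 and -0.41). The protocadherins PCDH10 and PCDH1 were -1.27 and -1.08, and the other PCDH10 probe was -1.19. Of the sheddases, ADAM15 was -0.72 (its brighter probe -0.13) and ADAM9 -0.37. Of the transcriptional repressors of cadherins, SNAI2 was 1.02 and TWIST1 0.65. The rest of that list went both ways, with SNAI1 at 0.50, the other TWIST1 probe at 0.19, and SNAI3 at -0.36. ZEB1 was -0.06 and -0.02, ZEB2 was -0.30 and -0.53, and the median of the list was -0.02. Adjusted p (limma) of the 2 genes first named from each list here lay between 0.466 for SNAI2 and 0.872 for PVR.

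**Figure D5:**
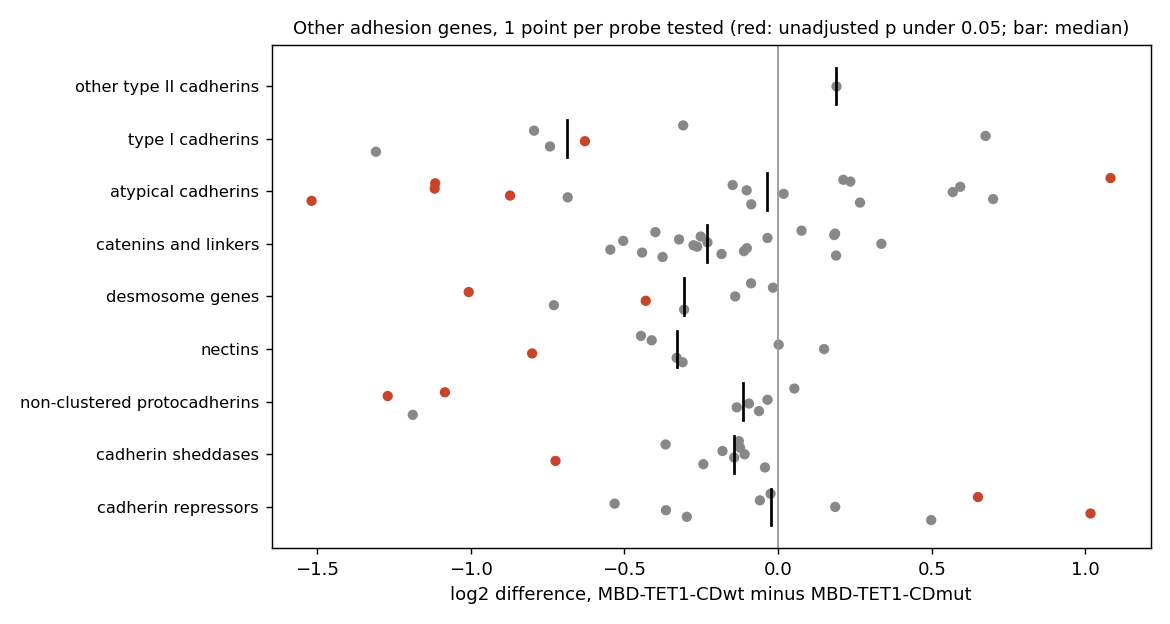
Log2 difference, MBD-TET1-CDwt minus MBD-TET1-CDmut (horizontal axis), of the 82 probes of 55 other adhesion genes by list, red where the unadjusted p of limma is under 0.05 and with the list's median as a bar. The probes range from -1.52 (CDHR1) to 1.08 (FAT4).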

How the data were processed

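Gene expression was measured on Agilent 4x44K v2 arrays. The deposited intensity values are the processed signals of Feature Extraction (version 9.5.1 in the submitters' notes, 10.7.3.1 in the file headers), background-subtracted by the authors without scaling between arrays. Members, lists, and the windows were chosen with earlier results of these data known.

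Control spots and outlier-flagged spots (213 to 269 per array) were left out, the 75th percentile of each array was subtracted on the log2 scale, and spots of a probe were averaged. A probe was detected where over 50% of its spots were well above background. A dim signal of the lower group was raised, for counts and bounds, to the dimmest detected signal of its array where it was below it. Probes were named through RefSeq (GRCh38.p14, 25422 of 34127). The array's own design was annotated on an older build.

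limma 3.58.1 (R 4.3.3) fitted 4 group means (4 residual degrees of freedom) over 22530 probes, with Benjamini-Hochberg adjustment, and was tested on simulated data. Other adhesion genes named are those called or, failing that, the 2 per list with the largest difference between the fusions among probes detected on all arrays. Alternatives were normexp, median and quantile scaling, other floors, filters, thresholds, and fits, and leaving out each clone. Python 3.11.15 was used. Slides could not be fitted beside constructs. The RT-PCR, bisulfite, and LNCaP experiments were not analysed here. The number of arrays limits the precision.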

Additional observations from a re-analysis of the deposited data

How the results depend on the processing

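Median and quantile scaling moved no CDH18 difference and no count of members by more than the spread within constructs. Normexp as planned, but on median spot signals in place of the mean signals named for it, gave fitted background means of -1321 on empty vector #2 and -240 on MBD-TET1-CDmut #10, against -4.21 to 3.51 on the 6 other arrays. Those 2 arrays hold 13 and 5 spots whose local background exceeds their signal (lowest difference -139956 units). The same fit without such spots (1.77 rather than -2.82 on empty vector #1, 2.89 on empty vector #2, 4.17 on MBD-TET1-CDmut #10) was added after these results were seen, and so were the alternatives for members other than CDH18 and the differences of CDH18 as measured with 1 clone left out.

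Under normexp as planned, CDH18 was -1.92 (MBD-TET1-CDwt), -0.99 (MBD-TET1-CDmut), and -1.81 (TET1-CDwt) against empty vector and -0.93 between the fusions. The log2 difference against empty vector turned to -1.37 (MBD-TET1-CDwt) and -0.53 (MBD-TET1-CDmut) for CDH6, to -1.30 and -0.43 for CDH8, to -1.20 and -0.47 for CDH10, to -1.64 for CDH9, -1.52 for CDH10, -0.76 for CDH11, and -0.48 for CDH24 in TET1-CDwt, and to -0.17 for CDH11 in MBD-TET1-CDmut. Between the fusions it turned to -0.74 for CDH9 and -0.73 for CDH10. Members counted as lower became 3 in TET1-CDwt (CDH5, CDH7, CDH18) and 3 in MBD-TET1-CDwt (CDH7, CDH11, CDH18), and 0 in MBD-TET1-CDmut, and those counted as higher became 0 in TET1-CDwt and MBD-TET1-CDmut.

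Under normexp without those spots, CDH9 turned to -0.26 and CDH10 to -0.083 in TET1-CDwt, CDH11 to 0.052 in MBD-TET1-CDwt, and CDH12 to 0.10 in MBD-TET1-CDmut against empty vector. CDH18 became -0.71 (MBD-TET1-CDwt), -0.59 (MBD-TET1-CDmut), and -0.65 (TET1-CDwt) against empty vector and -0.12 between the fusions, and all 6 counts of 1 member became 0. The offset of 50 exceeds all intensities of CDH18 and CDH11 but 1 each and draws dim signals together by construction. Quantile scaling turned CDH10 to -0.053 in MBD-TET1-CDmut.

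With dim signals as measured, 2 members (CDH11 and CDH18) were counted as lower in MBD-TET1-CDwt. At 5-fold, the count fell from 1 to 0 in TET1-CDwt and MBD-TET1-CDmut, higher and lower, and between the fusions, and it was the same only for CDH18 in MBD-TET1-CDwt. With 1 clone left out, the CDH18 difference against empty vector ran from -2.34 to -0.033 in TET1-CDwt, from -3.89 to -1.59 in MBD-TET1-CDwt, from -3.19 to -0.89 in MBD-TET1-CDmut, and from -1.38 to -0.45 between the fusions, where no bound can be given without MBD-TET1-CDmut #9. As measured, the difference between the fusions ran from -2.26 to -0.46. Counts ran from 0 to 1 for higher and for lower members in TET1-CDwt (0 higher without TET1-CDwt #2, 0 lower without empty vector #1), from 0 to 1 for lower members in MBD-TET1-CDmut (0 without empty vector #1), and from 1 to 2 between the fusions (2 without MBD-TET1-CDmut #10). Adhesion genes called ran from 0 to 1 in MBD-TET1-CDwt (PKP3 without #3, CDH15 without #10), in MBD-TET1-CDmut (CDH13 without #9), and between the fusions (CDH15 without MBD-TET1-CDwt #10, CDH13 without MBD-TET1-CDmut #9), and were 0 under all 8 other settings. A construct left with 1 clone is assumed to vary like the others. Adjustment over the list alone was not run. No paired analysis was made because the clones were isolated independently for each construct, and an equal clone number does not link them.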
